A study of Mus musculus with 8 samples.

Results

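The genes described here move cholesterol and plant sterols into and out of intestinal cells, store them as esters, or sense their oxidised forms. They were chosen by name, with earlier results of these data known. The 10 genes were Npc1l1, Abcg5, Abcg8, Abca1, Abcg1, Soat1, Soat2, Scarb1, Nr1h2 and Nr1h3. Every probe set carrying exactly 1 gene symbol, that symbol being a member, was taken. This gave 12 of the 45101 probe sets, for 7 of the 10 genes. Soat1 and Soat2, the enzymes that esterify cholesterol, and Nr1h2, which encodes LXR beta, had no probe set under their symbol in the platform annotation used here, and are not analysed here. By RefSeq on build GRCm38.p6, the measured genes lie at chr11:6211011-6230245 (Npc1l1), chr5:125277087-125341094 (Scarb1), chr17:84658174-84683011 (Abcg5), chr17:84676302-84700333 (Abcg8), chr4:53030789-53159988 (Abca1), chr17:31057694-31117984 (Abcg1) and chr2:91184061-91202829 (Nr1h3). The samples were small intestines of mouse fetuses at 18.5 days post coitum, 4 from Plagl2 knockout fetuses and 4 from wild-type fetuses, each on 1 Affymetrix MOE430 2.0 array, which reports 1 signal per probe set on a linear scale. The product of Plagl2 is a DNA-binding zinc finger protein, a member of the PLAG family. The labels give neither strain, sex nor litter, nor the part of the gene that is missing, so the tests compare 4 and 4 samples whose independence is not stated.

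In enterocytes, the absorptive cells of the intestine, NPC1L1 at the brush border takes up sterols from the lumen, and the half-transporters ABCG5 and ABCG8 join into 1 pump that returns sterols to the lumen. ABCA1 passes cholesterol across the basolateral membrane to lipid-poor apolipoprotein A-I, and ABCG1 passes it to more mature lipoprotein particles. The nuclear receptors LXR alpha and LXR beta bind oxysterols, pair with RXR, and switch on genes that include Abca1, Abcg1, Abcg5 and Abcg8.

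Of the 11 member probe sets bright enough for the test across all probe sets, 4 were higher in the knockout and 1 was lower at an adjusted p under 0.05 (limma, Benjamini-Hochberg over 27023 probe sets). Over all probe sets, 5.28% were called as higher and 6.7% as lower. With each gene counted once, by its brightest tested probe set, 4 of the 7 genes were higher and 1 lower, against 6.6% and 8.5% of all genes. The 4 higher probe sets belonged to the luminal sterol exporters Abcg5 and Abcg8, to Abca1, and to Nr1h3, which encodes LXR alpha. The lower one belonged to Abcg1. No call was made for the importer Npc1l1 or for Scarb1, a lipoprotein receptor. The median log2 fold change was 0.49 over the 11 member probe sets and 0.03 over all probe sets tested. The call of Abcg8, at an adjusted p of 0.0495, and that of Abcg1, at 0.0443, lay just inside the threshold. None of the 5 calls held when sex or a measure of RNA quality, the 3' to 5' ratio of control transcripts, was taken into account. Both differed between the genotypes, the ratio by only 0.064 on the log2 scale, and those fits called fewer of all probe sets too. The lost calls therefore do not tell sex or RNA quality from genotype.

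Plagl2 itself checks the labels: probe set 1417517_at read 3, 6, 5 and 11 in knockout replicates 1 to 4, against 824, 817, 697 and 796 in wild-type replicates 1 to 4. Array medians ran from 36 to 42. Knockout replicates 2 and 3 gave Xist signals of 1828 and 1410 and Eif2s3y signals of 7 and 3, while the other 6 arrays gave Xist signals of 20 to 47 and Eif2s3y signals of 562 to 770. Those 2 knockout fetuses therefore read as female and the other 6 samples as male. RNA quality was read from control transcripts probed at both ends. Their 3' signal over their 5' signal, as a mean log2 ratio, was 0.048 ± 0.035 in knockout and -0.016 ± 0.029 in wild-type samples (SD, n = 4 each, exact two-sided permutation p = 0.0286, the smallest possible for 4 against 4). Wild-type replicate 3 stood apart from its group. On the leading principal component it lay at -21.9, with its 3 fellow wild-types at -44.7 to -43.3 and the knockouts at 35.7 to 40.7.

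**Figure D1:**
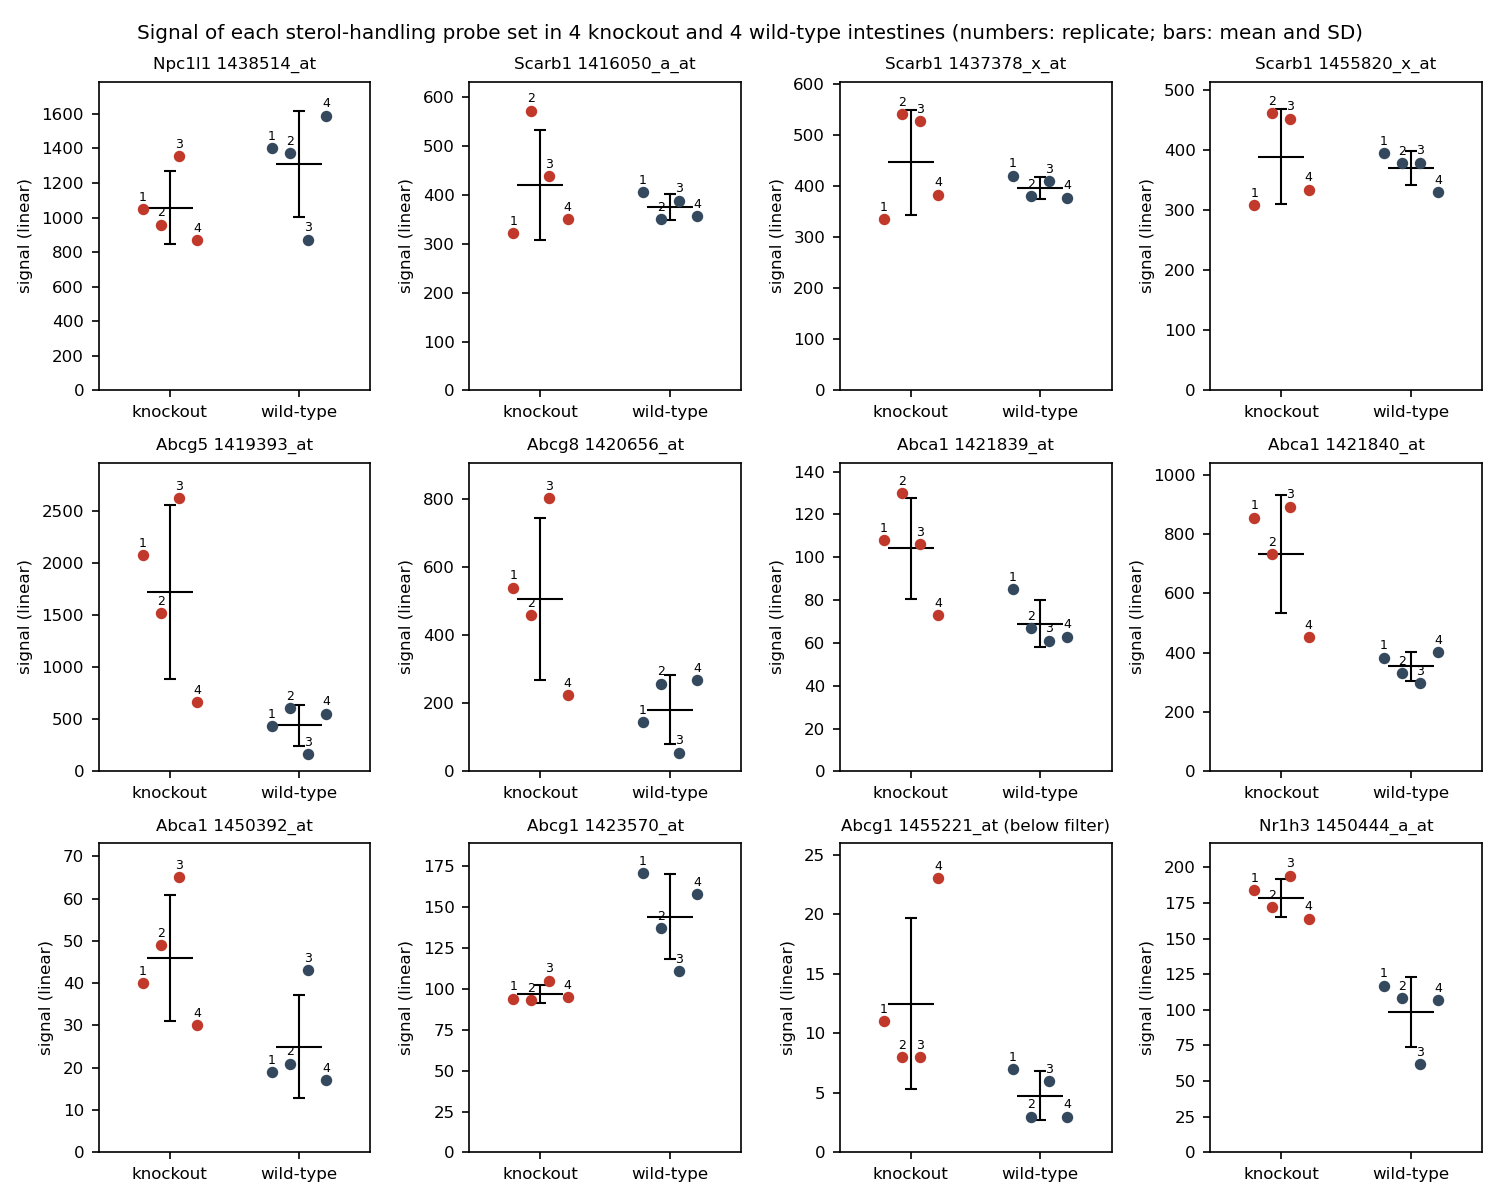
Linear signal of the 12 probe sets in each knockout (left, red) and wild-type (right, dark) array, with replicate numbers beside the points and the mean and SD as bars. Abcg5, Abca1 (1421840_at), Nr1h3 and the dim Abcg1 probe set 1455221_at show no overlap between genotypes, with the knockout above. Abcg1 (1423570_at) shows none with the knockout below. Npc1l1, Abcg8, the other Abca1 probe sets and the 3 Scarb1 probe sets overlap. Of all probe sets tested, 7.7% had every knockout above every wild-type and 9.26% every knockout below.

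Abcg5 and Abcg8 lie head to head on mouse chromosome 17 and are transcribed away from each other. A RefSeq start site of Abcg5 on the minus strand, at position 84683011, and one of Abcg8 on the plus strand, at 84683121, are 110 bases apart. A second Abcg8 start site is annotated at 84676302. Because both genes were called in the same direction, the 209 bases that lie in the promoter windows of both (each of 300 bases, most of them before the start site) are shown, at chr17:84682962-84683170, plus strand. Capitals mark the GATA core AGATAA on either strand, a motif added after the windows were read. It occurs 3 times in the shared stretch, and at least once in 11.2% of all 32851 promoter windows.
Abcg5 and Abcg8: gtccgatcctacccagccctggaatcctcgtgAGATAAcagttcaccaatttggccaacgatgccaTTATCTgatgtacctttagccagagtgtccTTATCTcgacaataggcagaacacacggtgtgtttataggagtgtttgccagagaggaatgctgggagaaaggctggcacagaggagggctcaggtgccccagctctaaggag

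The promoter window of Abca1, at chr4:53159846-53160145 and written 5′ to 3′ along the gene's minus strand, is shown with the core GGGGCC in capitals (here on the opposite strand, as GGCCCC). That core is part of the sites described for PLAG family factors, to which the protein missing in the knockout belongs.
Abca1: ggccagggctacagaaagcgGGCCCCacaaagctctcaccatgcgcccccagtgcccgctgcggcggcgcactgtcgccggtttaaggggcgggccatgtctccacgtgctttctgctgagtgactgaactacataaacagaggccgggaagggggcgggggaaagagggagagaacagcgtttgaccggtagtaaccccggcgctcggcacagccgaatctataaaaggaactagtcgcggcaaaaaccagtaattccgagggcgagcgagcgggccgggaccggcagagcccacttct

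RefSeq windows were at hand for 9 start sites of 7 of the 10 genes: Npc1l1, Abcg5, Abcg8, Abca1 and Nr1h3, and also Soat1 and Nr1h2, for which no signal was analysed. Scarb1 and Abcg1 are not among them. The GGGGCC core was present on either strand in the windows of 3 of these 7 genes (Npc1l1, Abca1, and the second Abcg8 window), and in 25.0% of all windows, a common match. The exact letters of the LXR element DR4 (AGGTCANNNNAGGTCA, both strands) were in none of these 9 windows and in 0.0152% of all windows. Its shortened form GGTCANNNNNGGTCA, which every DR4 match also holds, was in none of the 9 and in 0.0761% of all. The sterol regulatory element TCACNCCAC was in none of the 9 and in 1.24% of all. A match describes letters only. Sites that depart from these letters were not searched for, so a window without a match may still hold a variant of the element. A stretch of the Abca1 window shown above, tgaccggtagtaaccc, departs from DR4 at a few letters when read on the opposite strand. The share of all windows with such a stretch was not counted, and binding to it was not tested. A window of 300 bases also says nothing of more distant sites.

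Among the exporters, Abcg5 (1419393_at) showed the larger difference of the pair. Its signals were 2078, 1521, 2622 and 664 in knockout replicates 1 to 4, against 435, 610, 167 and 555 in wild-type replicates 1 to 4. The lowest knockout, replicate 4, lay just above the highest wild-type, and knockout replicate 3 stood highest. The mean was 1721 ± 836 in knockout and 442 ± 197 in wild-type samples (SD, n = 4 each), a 3.90-fold difference. On the log2(signal + 16) scale Abcg5 rose by 1.90 ± 0.43 (SE, limma adjusted p = 0.0124). Without wild-type replicate 3, where its signal was lowest, the log2 fold change of Abcg5 was 1.51.

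Abcg8 (1420656_at), the partner without which ABCG5 is not carried to the cell surface, gave 541, 460, 804 and 224 in knockout replicates 1 to 4. In wild-type replicates 1 to 4 it gave 145, 258, 55 and 269. Knockout replicate 4 fell among the wild-types, so the groups overlapped. The means were 507 ± 239 in knockout and 182 ± 101 in wild-type samples (SD, n = 4 each), and the log2 fold change was 1.47 ± 0.44 (SE, limma adjusted p = 0.0495). The call ended when knockout replicate 1, 2 or 3 or wild-type replicate 1 or 3 was left out (adjusted p = 0.0685 to 0.119). The arrays took nearly the same order for both genes, with knockout replicate 3 highest and wild-type replicate 3 lowest of all 8.

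The 2 genes of the pump were set against each other within each array. The difference Abcg5 minus Abcg8, in log2(signal + 16), was 1.70 ± 0.17 in knockout and 1.26 ± 0.21 in wild-type samples (SD, n = 4 each). It was larger in every knockout array than in any wild-type array, by 0.44 on average (exact two-sided permutation p = 0.0286, and 0.0286 adjusted over the 3 pairs compared). Knockout replicate 4 and wild-type replicate 1 nearly met, and with an offset of 1 in place of 16 the difference was 0.37 (exact permutation p = 0.0857). The 2 probe sets have their own hybridisation properties, so the values compare changes and not levels of the 2 transcripts.

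**Figure D2:**
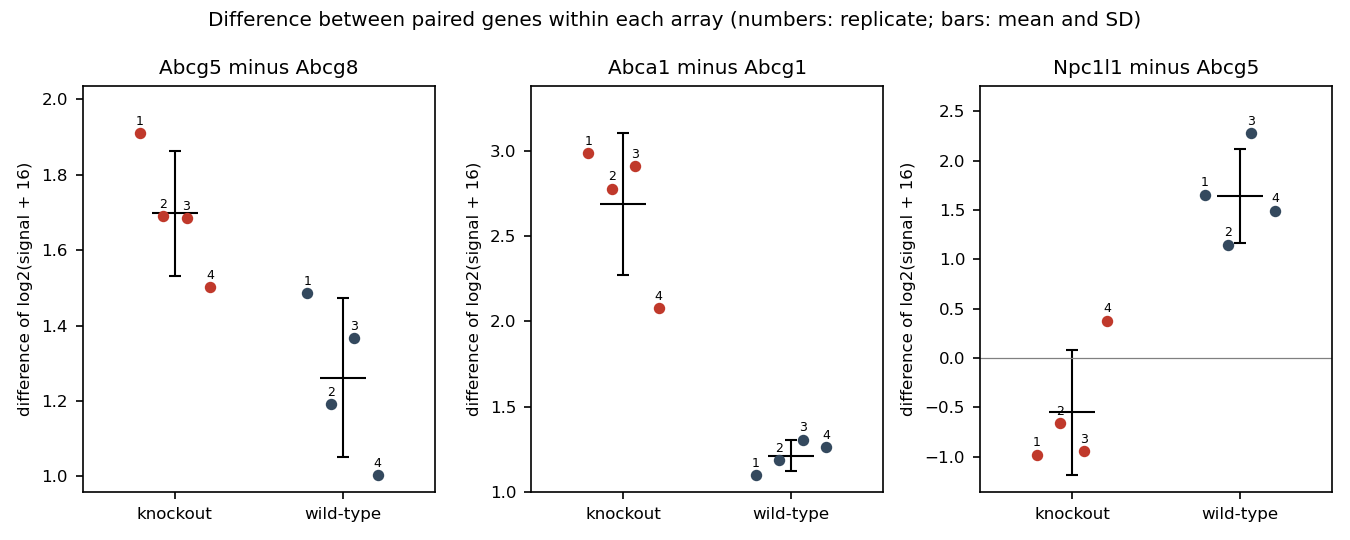
Difference of log2(signal + 16) between 2 genes in the same array, for knockout (left, red) and wild-type (right, dark) samples, with replicate numbers and the mean and SD as bars. In all 3 pairs the genotypes do not overlap: Abcg5 minus Abcg8 and Abca1 minus Abcg1 are higher in the knockout, and Npc1l1 minus Abcg5 is lower. For Abca1 minus Abcg1 this follows from the 2 genes, each of which separates the genotypes in opposite directions.

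Abca1, the basolateral exporter, has 3 probe sets. The brightest, 1421840_at, gave 855, 732, 893 and 452 in knockout replicates 1 to 4, against 384, 332, 298 and 401 in wild-type replicates 1 to 4. All knockouts lay above all wild-types, again with replicate 4 the lowest knockout. Means were 733 ± 200 in knockout and 354 ± 47.4 in wild-type samples (SD, n = 4 each), and Abca1 rose by 0.98 ± 0.19 on the log2 scale (SE, limma adjusted p = 0.00521).

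The other Abca1 probe sets pointed the same way without passing the test. Probe set 1421839_at read 108, 130, 106 and 73 in knockout replicates 1 to 4, against 85, 67, 61 and 63 in wild-type replicates 1 to 4, with knockout replicate 4 below wild-type replicate 1 (log2 fold change 0.49 ± 0.17 SE, limma adjusted p = 0.0959). Probe set 1450392_at read 40, 49, 65 and 30 in knockout replicates 1 to 4, against 19, 21, 43 and 17 in wild-type replicates 1 to 4 (0.61 ± 0.25 SE, limma adjusted p = 0.144). Here wild-type replicate 3 lay among the knockouts, and without it 1450392_at was called as higher (0.80, limma adjusted p = 0.0424). Without knockout replicate 4, 1421839_at was called as higher (0.62, limma adjusted p = 0.0263).

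Abcg1, like Abca1 a target of LXR, did the opposite. Its brighter probe set, 1423570_at, gave 94, 93, 105 and 95 in knockout replicates 1 to 4, against 171, 137, 111 and 158 in wild-type replicates 1 to 4. The 4 knockouts lay close together and below every wild-type, the nearest of which was wild-type replicate 3. Means were 96.8 ± 5.56 in knockout and 144 ± 26.2 in wild-type samples (SD, n = 4 each), and Abcg1 fell by 0.49 on the log2 scale (SE 0.14, limma adjusted p = 0.0443). That call ended when replicate 1, 2 or 4 of either genotype was left out (adjusted p = 0.0775 to 0.135).

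The second Abcg1 probe set, 1455221_at, was too dim to be tested. It read 11, 8, 8 and 23 in knockout replicates 1 to 4, against 7, 3, 6 and 3 in wild-type replicates 1 to 4. These values also did not overlap, with the knockout above, the reverse of 1423570_at. Of all probe sets tested, 7.7% had every knockout above every wild-type and 9.26% every knockout below.

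The unequal change of the 2 cholesterol exporters was seen within arrays. Abca1 minus Abcg1, in log2(signal + 16), was 2.99, 2.78, 2.91 and 2.08 in knockout replicates 1 to 4, against 1.10, 1.19, 1.31 and 1.26 in wild-type replicates 1 to 4. The knockout mean was 1.47 above the wild-type mean (exact two-sided permutation p = 0.0286, and 0.0286 adjusted over the 3 pairs). Knockout replicate 4 was the lowest knockout here too, still well above every wild-type. With any 1 array left out the differences were 1.38 to 1.68. The exact permutation p is at the smallest value these group sizes allow, with and without 1 array, so it says nothing of stability. Every knockout already lay above every wild-type for Abca1 and below every wild-type for Abcg1. The difference of the 2 genes therefore had to separate the genotypes, and its p adds nothing to the results of each gene.

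Nr1h3, the LXR alpha gene (1450444_a_at), gave 184, 172, 194 and 164 in knockout replicates 1 to 4, against 117, 108, 62 and 107 in wild-type replicates 1 to 4. The knockouts were tightly grouped and lay above all wild-types, and wild-type replicate 3 lay well below the other wild-types. Means were 178.5 ± 13.2 in knockout and 98.5 ± 24.7 in wild-type samples (SD, n = 4 each), and Nr1h3 rose by 0.79 ± 0.17 on the log2 scale (SE, limma adjusted p = 0.0094). Without wild-type replicate 3 the log2 fold change of Nr1h3 was 0.62 (limma adjusted p = 0.00612). The knockouts with Xist signal read 172 and 194 and the others 184 and 164.

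The import side gave no call. Npc1l1 (1438514_at), the target of the cholesterol absorption inhibitor ezetimibe, gave 1047, 958, 1353 and 869 in knockout replicates 1 to 4, against 1403, 1372, 871 and 1589 in wild-type replicates 1 to 4. Wild-type replicate 3 read as low as the lowest knockout, while the other wild-types lay above every knockout. The log2 fold change was -0.29 ± 0.18 (SE, 95% interval -0.69 to 0.11, limma adjusted p = 0.351). Without wild-type replicate 3 it was -0.47 and Npc1l1 was called as lower (limma adjusted p = 0.0395), so 1 array decides whether this gene is called.

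Import and luminal export were compared within arrays. Npc1l1 minus Abcg5, in log2(signal + 16), was -0.98, -0.66, -0.95 and 0.38 in knockout replicates 1 to 4, against 1.65, 1.15, 2.28 and 1.49 in wild-type replicates 1 to 4. The knockout mean was below the wild-type mean by a difference of -2.19 (exact two-sided permutation p = 0.0286, and 0.0286 adjusted over the 3 pairs). The groups did not overlap, knockout replicate 4 coming nearest to the wild-types, and without wild-type replicate 3 the difference was -1.98 (exact permutation p = 0.0571).

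Scarb1 encodes SR-B1, which takes up cholesteryl esters from high-density lipoprotein and lies on both faces of the enterocyte. Its brightest probe set, 1437378_x_at, gave 336, 541, 528 and 384 in knockout replicates 1 to 4, against 421, 381, 410 and 378 in wild-type replicates 1 to 4. The 2 knockouts with Xist signal were the highest of all 8 arrays, and knockout replicate 1 was the lowest. The same split appeared in the other 2 probe sets, where those knockouts read 572 and 438 (1416050_a_at) and 461 and 452 (1455820_x_at) and knockout replicates 1 and 4 read 322 and 350, and 308 and 334. The 3 log2 fold changes were 0.05 to 0.14, with 95% intervals that together ran from -0.26 to 0.47 (limma adjusted p = 0.613 to 0.869). They were -0.20 to -0.14 in the 6 arrays without Xist signal. Probe sets ending in _x_at can also bind other transcripts.

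**Figure D3:**
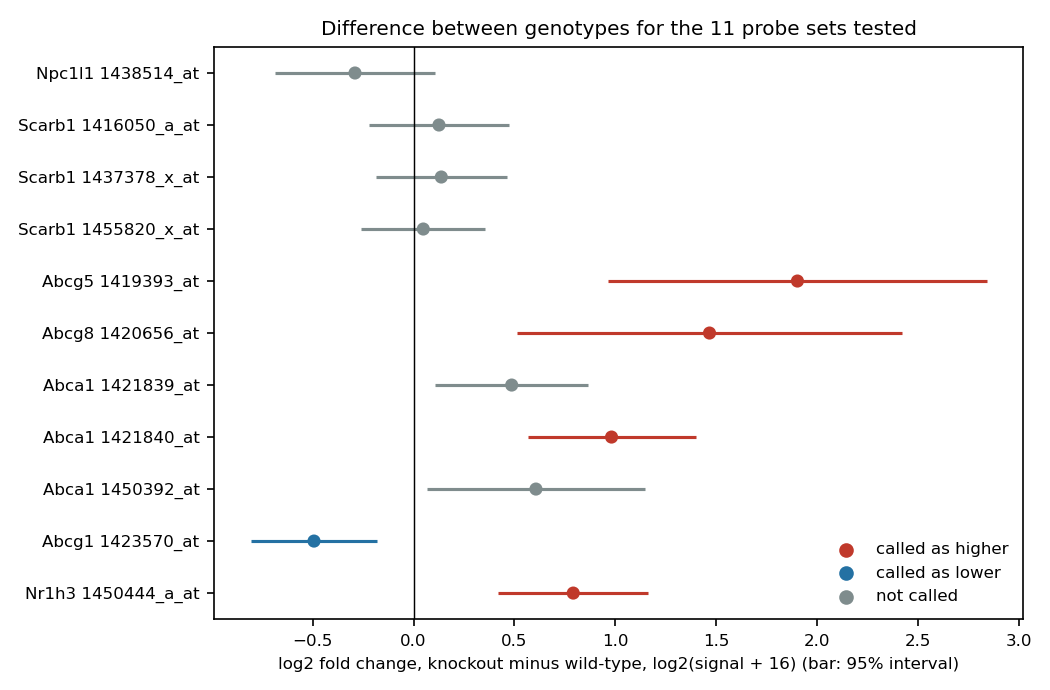
Log2 fold change, knockout minus wild-type, of the 11 member probe sets tested, with its 95% interval from limma. Intervals of Abcg5, Abcg8, all 3 Abca1 probe sets and Nr1h3 lie above 0, that of Abcg1 below 0, and those of Npc1l1 and Scarb1 cross 0.

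Sex and the 3' to 5' ratio, the measure of RNA quality, both differed between the genotypes. The group means of the ratio were only 0.064 apart on the log2 scale. No wild-type array had Xist signal. The 3' to 5' ratio was 0.017 to 0.098 in knockout and -0.055 to 0.0066 in wild-type samples, without overlap. A fit that takes in this ratio can hardly separate it from genotype. In the 6 arrays without Xist signal, 2 knockouts against 4 wild-types, no member was called by limma (3 higher and 1 lower at an unadjusted p under 0.05). The log2 fold changes there were 1.53 for Abcg5 (adjusted p = 0.11), 1.08 for Abcg8 (0.254), 0.80 for Abca1 (0.065), 0.76 for Nr1h3 (0.0733) and -0.52 for Abcg1 (0.125). Each kept its direction, Abcg5, Abcg8 and Abca1 with smaller values than over all 8 arrays, Nr1h3 and Abcg1 with nearly the same. When the fit took in the 3' to 5' ratio, limma again called no member (2 higher and 1 lower at an unadjusted p under 0.05), and the values were 0.84 for Abcg5 (adjusted p = 0.425), 0.58 for Abcg8 (0.648), 0.62 for Abca1 (0.237), 0.46 for Nr1h3 (0.32) and -0.63 for Abcg1 (0.149). The values of the 4 higher genes were smaller there, and that of Abcg1 was larger. Calls over all probe sets fell as well, to 471 higher and 919 lower with the ratio in the fit, against 1427 and 1811 without it. The part of sex and of RNA quality in the results was not tested further.

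Cell makeup also varied between the arrays. In bulk tissue, fewer cells of a type and less RNA per cell cannot be told apart. Beside the marker counts below, 6.6% of all genes were called as higher and 8.5% as lower. The summed signal of 14 smooth muscle and mesenchymal markers was 19493 to 31927 in knockout and 16479 to 26204 in wild-type samples, with 2 markers called as higher and none as lower (7 and 0 at an unadjusted p under 0.05). It was highest in knockout replicate 4 and wild-type replicate 3 within their genotypes. These 2 arrays held the lowest reading of their genotype in 7 of the 11 member probe sets each. The 14 enterocyte and epithelial markers summed to 37741 to 49036 in knockout and 34709 to 39095 in wild-type samples, again lowest in those 2 arrays, and 4 were called as higher and 2 as lower. Krt20, a keratin of mature enterocytes, accounts for much of the difference in the sum, with 3232, 3095, 4412 and 2139 in knockout replicates 1 to 4, against 413, 493, 552 and 648 in wild-type replicates 1 to 4. Krt18, another epithelial keratin, read 901 to 1335 in knockout and 2076 to 2509 in wild-type samples and fell (-1.02 on the log2 scale, limma adjusted p = 0.000136). Without both arrays, 6 member probe sets were called as higher and 1 as lower, and calls over all probe sets were more numerous too (2061 higher and 2268 lower, against 1427 and 1811 with all 8 arrays).

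Macrophages, which also use Abca1, Abcg1 and Nr1h3, were examined through 14 markers. Csf1r, the receptor for their growth factor, fell to 628 to 858 in knockout samples, against 2874 to 4306 in wild-type samples, and Adgre1 also fell (-0.98 on the log2 scale), while no marker was called as higher (limma, 0 higher and 7 lower at an unadjusted p under 0.05). The other 13 markers summed to 1639 to 2159 in knockout and 2098 to 2228 in wild-type samples. The 10 endothelial markers gave no call (limma, 0 in either direction at an unadjusted p under 0.05), with sums of 1526 to 1932 in knockout and 1514 to 1781 in wild-type samples. Of 6 liver and pancreas genes tested, none was called as higher and 1 as lower (limma, 0 and 1 at an unadjusted p under 0.05). The lower one was the transthyretin gene Ttr, at 1254, 1163, 633 and 3279 in knockout replicates 1 to 4, against 5856, 4033, 4089 and 5826 in wild-type replicates 1 to 4. Alb, the albumin gene, was not called and read 656, 4, 32 and 4646 in knockout replicates 1 to 4, against 15, 22, 122 and 75 in wild-type replicates 1 to 4, and Ahsg, too dim to be tested, read 453 in knockout replicate 4 and 86 or less elsewhere. Cyp3a11, also too dim, read 10 to 33 in knockout and 9 to 25 in wild-type samples. Over all genes, 6.6% were called as higher and 8.5% as lower. The part of these cell types in the results was not tested.

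Position along the gut was read from 12 region genes, where 6.6% of all genes were called as higher and 8.5% as lower. Among the 5 proximal genes tested none was called (limma, 0 higher and 1 lower at an unadjusted p under 0.05), with a log2 fold change of -0.40 for lactase Lct, 0.15 for the proximal transcription factor Gata4 and 0.26 for Pdx1. The ileal bile acid binding protein gene Fabp6 split the knockouts: it read 321, 4286, 4505 and 131 in knockout replicates 1 to 4, against 222, 460, 13 and 101 in wild-type replicates 1 to 4. The 2 high arrays were the ones with Xist signal and with the highest Scarb1 readings. Of the 3 distal genes tested, 0 were called as higher and 1 as lower (limma, 1 and 1 at an unadjusted p under 0.05). The distal hormone gene Pyy fell (-0.80), while Fabp6 and Osr2 (0.26) were not called. The other distal genes, Slc10a2, Hoxb13 and Hoxd13, were too dim to be tested, as was the proximal gene Onecut3. Hoxb13, a distal Hox gene, read 1 to 4 in all 8 arrays.

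Genes that share the LXR pathway moved in both directions. Of 16 LXR target genes outside the 10, 3 were called as higher and 2 as lower, where 6.6% and 8.5% of all genes were called, and the median log2 fold change was 0.03, as over all probe sets. Among the higher ones, Scd1, the stearoyl-CoA desaturase, read 3434, 1564, 4640 and 1336 in knockout replicates 1 to 4, against 247, 218, 276 and 382 in wild-type replicates 1 to 4 (log2 fold change 3.06 ± 0.34 SE, limma adjusted p = 0.000106). Srebf1, which encodes the lipogenic factor SREBP-1, rose by 1.06 ± 0.18 (adjusted p = 0.00189), and Mlxipl, which encodes the carbohydrate-responsive factor ChREBP, rose by 0.87 ± 0.17 (adjusted p = 0.00608). All 3 had every knockout above every wild-type.

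The 2 lower targets were Apoc1, an exchangeable apolipoprotein gene (-1.98 ± 0.33 SE, limma adjusted p = 0.002), and Smpdl3a, a phosphodiesterase gene (-0.65 ± 0.14 SE, limma adjusted p = 0.0105). Apoc1 gave 72, 39, 72 and 197 in knockout replicates 1 to 4, against 338, 282, 507 and 383 in wild-type replicates 1 to 4, without overlap. Mylip, which encodes the LXR-induced degrader of the LDL receptor, read 145 to 235 in knockout and 148 to 177 in wild-type samples and was not called (limma adjusted p = 0.631). Calls among the targets thus lay on both sides.

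Of 12 tested LXR partners and coregulators none was called, against 6.6% of all genes higher and 8.5% lower (limma, 0 in either direction at an unadjusted p under 0.05; median log2 fold change 0.02). The smallest p-values belonged to the partner receptor Rxra (-0.20, limma adjusted p = 0.352), the coactivator Ppargc1a (-0.33, 0.355) and the acetyltransferase Ep300 (0.14, 0.463). Rxra gave 216, 178, 185 and 156 in knockout replicates 1 to 4, against 209, 232, 218 and 191 in wild-type replicates 1 to 4, with overlap.

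Another list held enzymes that modify sterols or that make or modify oxysterols, the ligands of LXR. Of 8 tested, 2 were called as higher and none as lower, beside 6.6% and 8.5% of all genes (limma, 4 and 1 at an unadjusted p under 0.05; median log2 fold change 0.39). Cyp27a1, the mitochondrial sterol 27-hydroxylase, gave 360, 326, 494 and 150 in knockout replicates 1 to 4, against 51, 48, 59 and 85 in wild-type replicates 1 to 4 (2.10 ± 0.29 SE, limma adjusted p = 0.000489). Sult2b1, a sulfotransferase of cholesterol and oxysterols, gave 391, 411, 769 and 301 in knockout replicates 1 to 4, against 19, 33, 2 and 29 in wild-type replicates 1 to 4 (3.73 ± 0.33 SE, limma adjusted p = 1.72e-05). Neither gene overlapped between genotypes, and Sult2b1 was dim in the wild-types, where the added 16 sets much of the size of the change.

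Among 20 genes of lysosomal and intracellular sterol traffic, 2 were called as lower and none as higher (limma, 4 and 2 at an unadjusted p under 0.05; median -0.09). That count is near the 8.5% of all genes called as lower. Stard5, a cytosolic sterol and bile acid binding protein gene, read 191, 159, 170 and 238 in knockout replicates 1 to 4, against 501, 452, 544 and 487 in wild-type replicates 1 to 4 (-1.33 ± 0.13 SE, limma adjusted p = 4.18e-05). Osbpl1a, an oxysterol binding protein relative, fell by 0.50 on the log2 scale (SE 0.14, limma adjusted p = 0.0364). Of 11 sterol sensing and LDL uptake genes, 1 was called as higher and 1 as lower, near the 6.6% and 8.5% over all genes. The lipoprotein receptor gene Vldlr rose by 0.91 ± 0.13 (SE, limma adjusted p = 0.000764), and the squalene epoxidase gene Sqle fell by 0.46 (SE 0.13, limma adjusted p = 0.0449). Sqle read 811 in knockout replicate 4, within the wild-type range of 768 to 934, and 528 to 609 in the other knockouts.

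Of 15 trafficking partners of NPC1L1 and SR-B1, 2 were called as higher and 1 as lower, with 6.6% and 8.5% of all genes called in those directions (median 0.16). Anxa2, a membrane-binding annexin gene, read 4285, 4291, 5370 and 3378 in knockout replicates 1 to 4, against 2429, 2415, 2152 and 2511 in wild-type replicates 1 to 4 (0.84 ± 0.12 SE, limma adjusted p = 0.000657). The scaffold gene Slc9a3r2 rose by 0.46 ± 0.13 (SE, limma adjusted p = 0.046). Ehd1, which encodes an ATPase of endocytic recycling, fell by 0.80 (SE 0.11, limma adjusted p = 0.000639). Pdzk1, the PDZ protein that holds SR-B1 at the surface in liver, read 1481 to 2334 in knockout and 984 to 1659 in wild-type samples and was not called (limma adjusted p = 0.178).

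**Figure D4:**
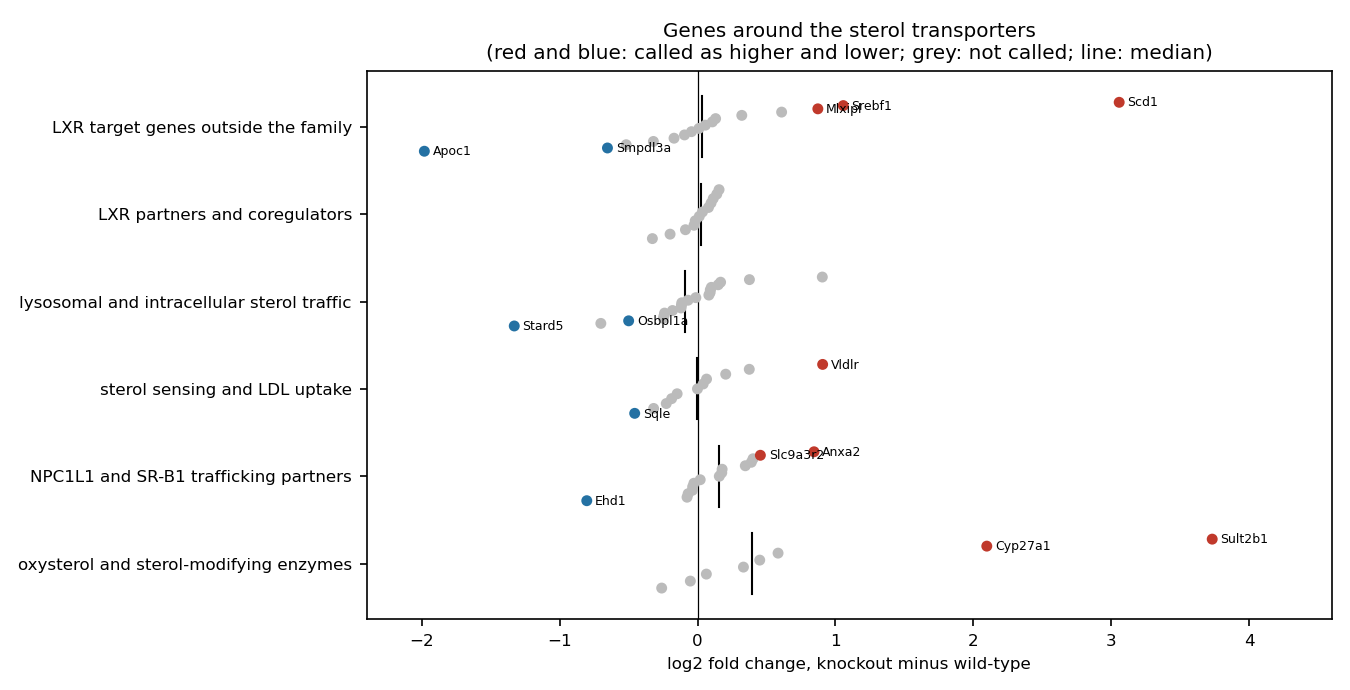
Log2 fold change, knockout minus wild-type, of each tested gene in 6 lists around the sterol transporters (red called as higher, blue called as lower, grey not called, black line the median). Calls lie on both sides in 3 of the lists, on the lower side in the list of sterol traffic, on the higher side in that of sterol-modifying enzymes, and are absent among LXR partners.

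Genes with array profiles most like those of Abcg5, Abca1 and Nr1h3 were found by the root mean square difference, over the 8 arrays, of log2 values taken relative to the wild-type mean, among 12831 genes. Nearest to Abcg5 were Slc46a1, which encodes the intestinal folate transporter (0.31), Atp10b, a lipid flippase gene (0.33), and Lpcat4, a lysophospholipid acyltransferase gene (0.35). Slc46a1 read 631, 629, 984 and 359 in knockout replicates 1 to 4, against 223, 300, 62 and 291 in wild-type replicates 1 to 4, with the same highest and lowest arrays as Abcg5. Nearest to Abca1 were Tmem120a, Cdc42ep5 and Tesk2 (0.12 to 0.13), and nearest to Nr1h3 were Glt28d2, Cldn15, which encodes a claudin of the intestinal tight junction, and Rsph3a (0.12 to 0.13).

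**Figure D5:**
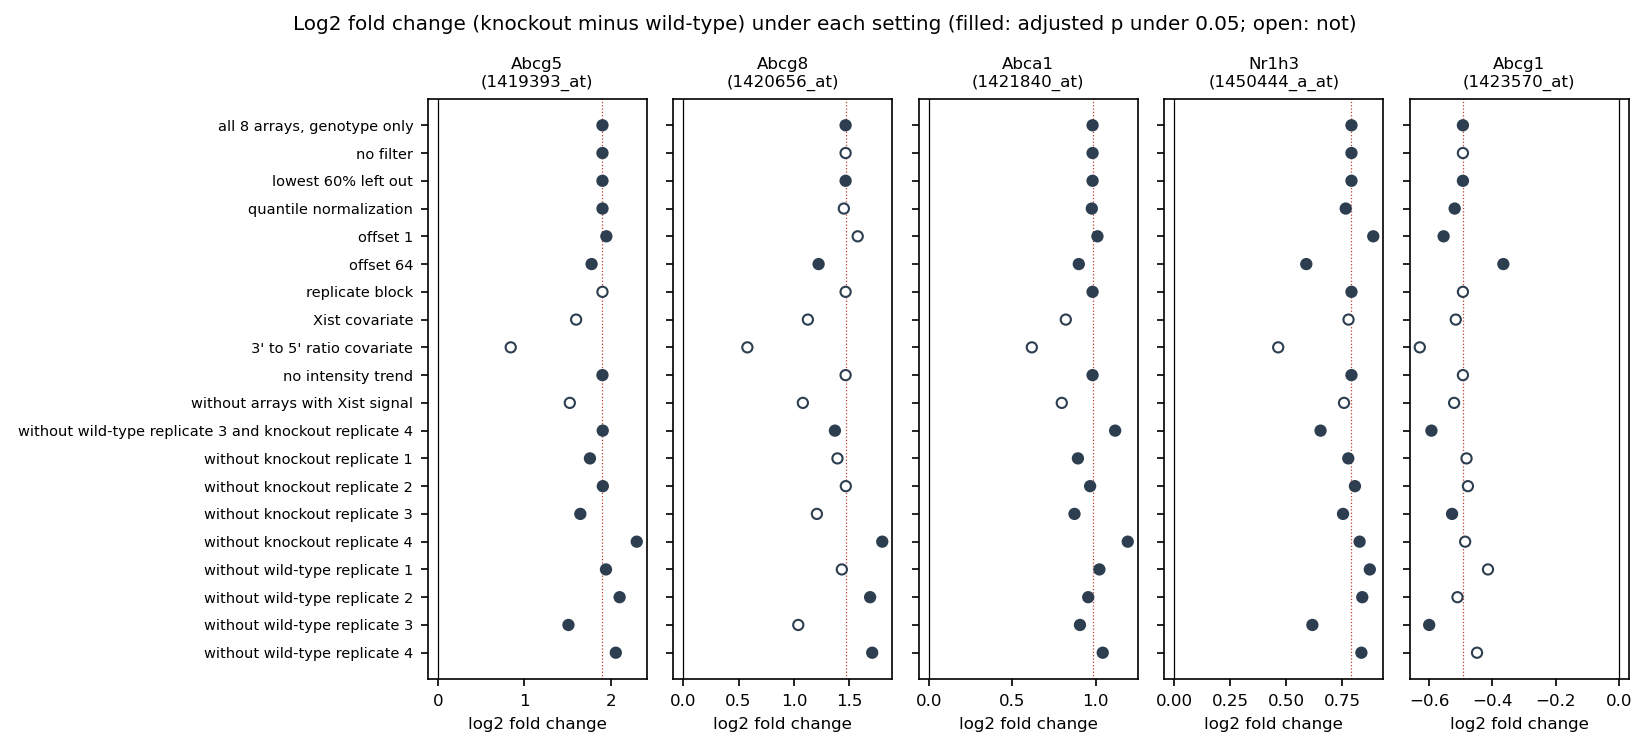
Log2 fold change, knockout minus wild-type, of the 5 called members under each setting, from all 8 arrays with genotype as the only term (top) through the alternatives to the arrays left out in turn (bottom). Filled points have an adjusted p under 0.05 and open points do not, and the dotted line marks the value in all 8 arrays. Every value keeps its sign, while all 5 calls are open with the Xist or 3' to 5' covariate and without the arrays with Xist signal.

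Abcg5 ranged from 0.84 to 2.30 over the 19 alternatives and Abcg8 from 0.58 to 1.80. Abca1 (1421840_at) ranged from 0.62 to 1.19, Nr1h3 from 0.46 to 0.89, and Abcg1 (1423570_at) from -0.63 to -0.37. The calls of Abcg5, Abca1 and Nr1h3 held with any 1 array left out, those of Abcg8 in 3 of the 8 such fits and those of Abcg1 in 2.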

How the data were processed

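Gene expression was measured on Affymetrix MOE430 2.0 arrays in 4 knockout and 4 wild-type samples. The deposited values are signal intensities on a linear scale, 1 for each probe set and array. Each array had a mean of about 150.05 after trimming 2% at each end, so the authors' scaling is in the values. Titles and design text set the groups; the extraction text names wild-type intestines for all 8 samples. The signal algorithm is not given in the sources used here. Of 45101 probe sets, 34958 have 1 symbol in the platform annotation, 932 several and 9211 none, and 34754 of the first were found by Entrez ID in RefSeq (GRCm38.p6).

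Signals were taken as log2(signal + 16). The 64 control probe sets and the 40% of the rest with the lowest mean were left out, leaving 27023 (mean signal at least 23.25). The fit used limma 3.58.1 (R 4.3.3) with an intensity trend and genotype as the only term. A call needed a two-sided p under 0.05 after Benjamini-Hochberg adjustment. The added 16 understates changes of dim probe sets. For each listed gene the brightest tested probe set was used. Pairs of genes were compared within arrays by an exact permutation test. Of 5 pairs planned, 3 were run, since Soat1, Soat2 and Nr1h2 had no probe set. The fit was tested on simulated data. The named genes were Plagl2, all members, from each pathway or region list up to 5 called genes (or the 3 with the smallest p), and the 3 profiles nearest to each of Abcg5, Abca1 and Nr1h3. Others, among them Mylip, Pdzk1, Fabp6, Hoxb13, Krt18, Krt20, Alb, Ahsg, Cyp3a11 and Ttr, were chosen after their values were seen. The members and lists were chosen with earlier results of these data known. The number of arrays limits the precision. Alternatives changed the filter, offset, normalization, trend, covariates and arrays. Promoter sequences are RefSeq's.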

Additional observations from a re-analysis of the deposited data

Results flagged for a closer look

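Wild-type replicate 3 gave an Nr1h3 signal of 62, where the other wild-types gave 107 to 117. Its gap to the nearest of them was 0.854 of the whole wild-type range on the log2 scale, above Dixon's 95% critical value of 0.829 for 4 samples. It was the 1 such reading in 24 groups of 4 arrays examined, and chance gives about 1 in 20.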

How the results depend on the processing

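The member calls depended on covariates and on single arrays. With the replicate number as a block (replicate block), 2 member probe sets were higher and 0 lower by limma (6 and 1 at an unadjusted p under 0.05), and 751 and 1164 of all probe sets. The labels do not say that equal numbers mark a shared litter, and deviations of same-numbered arrays correlated at -0.27 to -0.01. These values were not set beside those of differently numbered arrays, so whether the numbers pair samples was not tested. With Xist as a covariate the member counts were 0 and 0 (3 and 1 unadjusted), with 755 of all probe sets higher and 1269 lower. When the fit took in the 3' to 5' ratio they were 0 and 0 (2 and 1 unadjusted), against 471 and 919 of all. Without the arrays with Xist signal they were 0 and 0 (3 and 1 unadjusted), with 807 of all higher and 1338 lower. With no filter (more probe sets tested) or no intensity trend, 0 members were lower (1 unadjusted in each), against 1628 and 1555 of all probe sets. With 1 array left out, 3 to 5 members were higher and 0 to 2 lower, and 876 to 2085 and 1296 to 2161 of all.

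Abcg5 minus Abcg8 was 0.37 with an offset of 1 (exact permutation p = 0.0857), 0.44 with the block (exact p = 0.125, the smallest that 4 pairs allow), 0.44 without the arrays with Xist signal (exact p = 0.133), 0.54 without wild-type replicate 3 and knockout replicate 4 (exact p = 0.1), and 0.35 to 0.51 with 1 array left out (exact p = 0.0286 to 0.0571). With the block, without the arrays with Xist signal, and without wild-type replicate 3 and knockout replicate 4, Abca1 minus Abcg1 was 1.47, 1.32 and 1.71, and Npc1l1 minus Abcg5 was -2.19, -1.94 and -2.29, each at the smallest p those designs allow (exact p = 0.125, 0.0667 and 0.1). With 1 array left out they were 1.38 to 1.68 and -2.50 to -1.98.

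Scarb1, not called under any setting, changed sign in 10 fits. The 3 probe sets (1416050_a_at, 1437378_x_at, 1455820_x_at) had -0.17, -0.16 and -0.20 with the Xist covariate and -0.15, -0.14 and -0.20 without the arrays with Xist signal. With 1 array left out, 1416050_a_at ran from -0.028 (without knockout replicate 2) to 0.24 and 1455820_x_at from -0.038 (without knockout replicate 2) to 0.15. Probe set 1455820_x_at was also below 0 without knockout replicate 3 (-0.028) and without wild-type replicate 4 (-0.0038). The cause of these changes was not tested. Over the member probe sets tested, 158 of 208 fits kept direction and call.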

Other observations

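The pancreatic protease gene Ctrb1 read 2603, 216, 324 and 274 in knockout replicates 1 to 4, against 313, 1584, 1388 and 211 in wild-type replicates 1 to 4, so its high arrays were found in both genotypes. Another pancreatic gene, Cpa1, read 529, 62, 65 and 76 in knockout replicates 1 to 4, against 41, 304, 336 and 16 in wild-type replicates 1 to 4, with the same 3 arrays high. The choice of these genes followed their values.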
